A study of Mus musculus with 17 samples.

Results

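The comparison set colon macrophage preparations from MCJ-deficient mice given an antibiotic followed by dextran sulfate sodium (DSS) against the same preparation from untreated MCJ-deficient mice. Libraries entered by their labels: KO_NN 13 and 14 were the untreated group and KO_PP 22, 23 and 24 the treated group, together 5 of the 17 libraries in the series. Both groups were MCJ-deficient C57BL/6(h-2b) mice aged 8 weeks, and each library carried its own mouse number. The treated mice had a broad spectrum antibiotic for 7 days and DSS for 6 days, whereas the labels of the untreated mice name neither agent. The colon was washed and digested with collagenase type IV, and no sort or enrichment step for macrophages is named. Extracted RNA was sequenced from mRNA libraries, and the deposited values were read counts per gene. The treated mice had both agents, and no MCJ-deficient group given the antibiotic without DSS was used here. In these 5 libraries the effects of the 2 agents therefore cannot be told apart. The series also holds 3 MCJ-deficient libraries given DSS without antibiotic (KO_NP). They entered only the levels of Reg4 and the fit of 17 libraries below.

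MCJ, also known as methylation-controlled J protein and encoded by Dnajc15, is a DnaJ-family protein of the inner mitochondrial membrane that acts as a brake on respiratory complex I. DSS is a sulfated polysaccharide that injures the colonic epithelium when given in drinking water, after which bacteria reach the lamina propria and monocytes and neutrophils enter the tissue. Resident colon macrophages are replenished by blood monocytes, take up bacteria and dead cells, and in the healthy gut respond to bacterial products with little cytokine release. Broad spectrum antibiotics remove much of the bacterial community that supplies short-chain fatty acids and microbial ligands to the mucosa.

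Dnajc15 lies on chromosome 14 at 77826217 to 77874917 of GRCm38. It had 104 and 111 reads in the untreated and 21, 22 and 105 reads in the treated MCJ-deficient libraries, against 359 to 1286 reads in the 6 wild-type libraries that were untreated or had both agents. Every MCJ-deficient library was therefore below every one of those wild-type libraries. The difference between the MCJ-deficient groups did not pass edgeR's quasi-likelihood test (log2 fold change -0.90, SE 1.02, Benjamini-Hochberg adjusted p = 0.649), and the groups overlapped.

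Depth ranged from 29937085 to 36367332 counts per library. The scaling factors ran from 0.776 in treated library 24 to 1.188 in untreated library 13. Xist, the RNA expressed from the inactive X chromosome of female cells, had 7176 and 7950 reads in the untreated libraries and 9, 1 and 0 in the treated ones. The Y-linked gene Ddx3y had 0 CPM in both untreated libraries and 78.1, 49.6 and 38.6 CPM in the treated ones, where CPM is the count after scaling to a common library total (normalized CPM). The 2 untreated libraries thus carried Xist and the 3 treated libraries Y-linked transcripts, so that in these 5 libraries treatment and sex cannot be told apart in any result below, and genes on the X and Y chromosomes were not tested. Treated library 24 stood apart in another way: 2.43% of its counts fell on 12 genes of pancreatic acinar cells, which make digestive enzymes, against 0.0398% and 0.0312% in the untreated libraries and 0.0021% and 0.00187% in the other treated ones. In the untreated libraries 1 gene, Cela1, held 11857 of 11909 and 10405 of 10449 of these reads.

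The label of colon macrophages was checked against defining markers. The 14 macrophage markers summed to 34.3 and 32.5 CPM in the untreated libraries and to 2168, 2463 and 2262 CPM in the treated libraries. The mean of the log2 sums was 6.10 higher in the treated libraries. Mertk, a receptor for dead cells that did not pass the test, made up 20.7 and 16.3 CPM of the untreated sums. Adgre1, which encodes F4/80, was at 0.911 and 0.298 CPM untreated and at 75.8, 95.1 and 50.2 CPM treated. Cd68, a lysosomal glycoprotein of macrophages, was at 2.03 and 0.476 CPM untreated and at 160.5, 321 and 183 CPM treated. Ly6c2, a surface protein of inflammatory monocytes, was at 2.55 and 3.13 CPM untreated and at 99.5, 105 and 69.4 CPM treated. Csf1r, the receptor for the macrophage growth factor CSF1, was at 0.759 and 1.22 CPM untreated and at 226, 202 and 83.9 CPM treated. Cd163, a scavenger receptor of resident macrophages, had 0 reads in both untreated libraries. The 17 colonocyte markers, in contrast, summed to 22540 and 29610 CPM untreated and 11790, 10760 and 16050 CPM treated. Epcam, an epithelial adhesion molecule, was at 2008 and 1918 CPM untreated and at 794, 669.7 and 1424 CPM treated. Macrophage markers were thus low in the untreated preparations, with 1 of the 14 at 0 reads in both, epithelial transcripts were abundant in all 5, and the untreated libraries did not carry the profile that their label names. In bulk samples, a lower number of cells of a type and less RNA per cell cannot be told apart, and this applies to every gene below.

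Of the 21 cell type marker sums, 17 did not overlap between the groups, 15 of them higher and 2 lower after treatment. For each of these 17 the exact two-sided permutation test gave p = 0.2, the smallest p that 2 against 3 libraries allow, and an adjusted p of 0.247. Neutrophil markers summed to 29.2 and 35.6 CPM untreated and to 1411, 5976 and 1818 CPM treated, and monocyte markers to 631.7 and 1078 CPM against 4645, 3681 and 3115 CPM. Dendritic cell markers summed to at most 0.425 CPM untreated and to 44.0, 106.6 and 60.7 CPM treated. Lymphoid signals were small: T and NK cell markers summed to 2.43 and 4.17 CPM untreated and 51.1, 77.4 and 35.9 CPM treated, and B cell markers stayed under 5 CPM in each library. Red blood cell markers went from 5.68 and 4.47 CPM to 9120, 12910 and 889.8 CPM, and adipocyte markers from 4.13 and 2.74 CPM to 397.1, 148.8 and 85.2 CPM. Fibroblast markers were at 10.2 and 7.502 CPM untreated and 114.4, 320.5 and 127.8 CPM treated, and endothelial markers at 9.02 and 13.2 CPM against 101.6, 128.8 and 129.4 CPM. The treated preparations therefore held more transcript of most myeloid and stromal types, and less of colonocytes. Crypt stem cell, goblet, enteroendocrine and tuft, and pancreatic acinar sums were the 4 whose groups overlapped (exact permutation p of 0.4, 0.6, 0.4 and 1), with goblet cell markers at 2151 and 3026 CPM untreated and 3984, 1912 and 4615 CPM treated.

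**Figure D1:**
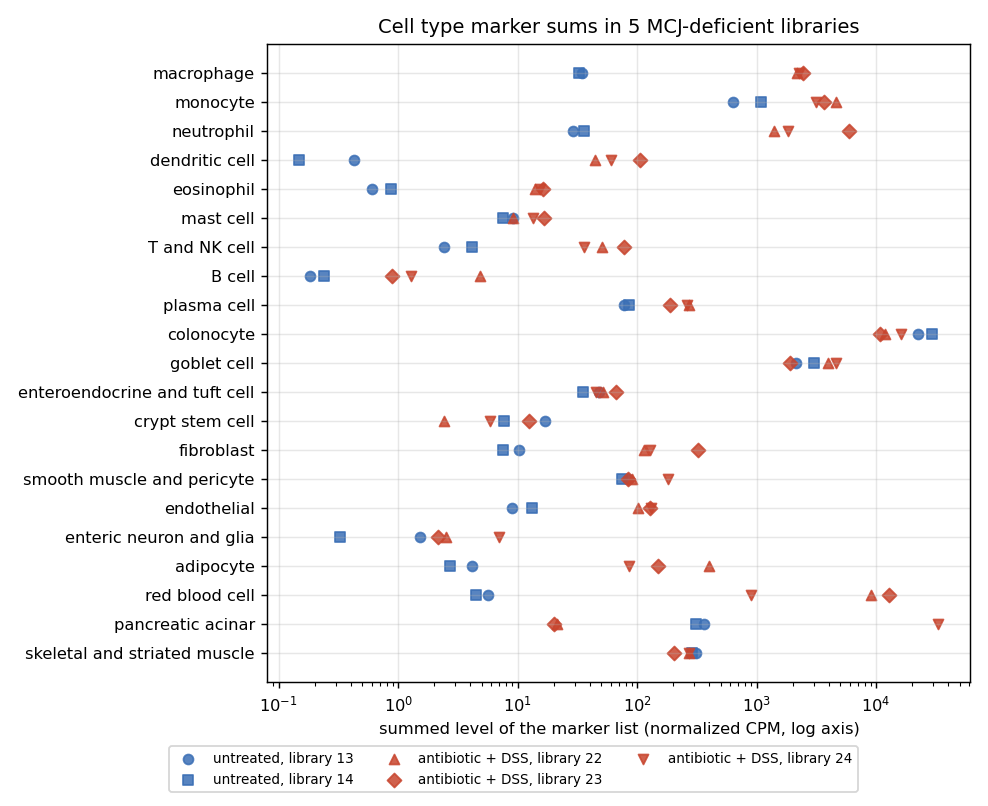
Summed level of each cell type marker list in the 5 MCJ-deficient libraries, in normalized CPM on a log axis, with 1 symbol per library. Macrophage, neutrophil, dendritic cell and red blood cell sums of the treated libraries lie well above those of the untreated ones, colonocyte sums lie below, and the acinar sum of treated library 24 reaches 33290 CPM.

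Of 14194 autosomal and mitochondrial genes tested with edgeR's quasi-likelihood test, 1314 (9.26%) were higher and 372 (2.62%) lower after antibiotic plus DSS at a Benjamini-Hochberg adjusted p under 0.05, which is what "called", "rose" and "fell" mean below. In all, 1686 genes (11.9%) were called. The p-values set the difference between the groups against the spread within them, estimated from these 5 libraries with information shared across genes. The median log2 fold change over all genes tested was 0.05. The genes that rose had a median of 4.88 and those that fell a median of -1.81 on the log2 scale. Of the genes that rose, 161 had 0 reads in both untreated libraries. Such genes entered the test only through the treated group and had to differ, and their fold is given as a lower bound computed with 3 reads over the untreated group. The list counts below include tested members of this kind. For example, they were 4 of 21 inflammatory cytokines, 6 of 27 CC and interferon-induced chemokines and 4 of 19 metalloproteinases and inhibitors. They were also 4 of 11 acute phase genes and 4 of 10 neutrophil markers. The libraries of the groups did not overlap for 6742 genes (47.5%). Leaving out 1 library moved the number of calls widely: 816 without untreated library 13, 874 without 14, 1182 and 1093 without treated 22 and 23, and 2957 without 24. When counts were scaled by library totals, 797 genes were lower and 56.35% of the calls were higher, against 77.94% with the scaling used here.

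**Figure D2:**
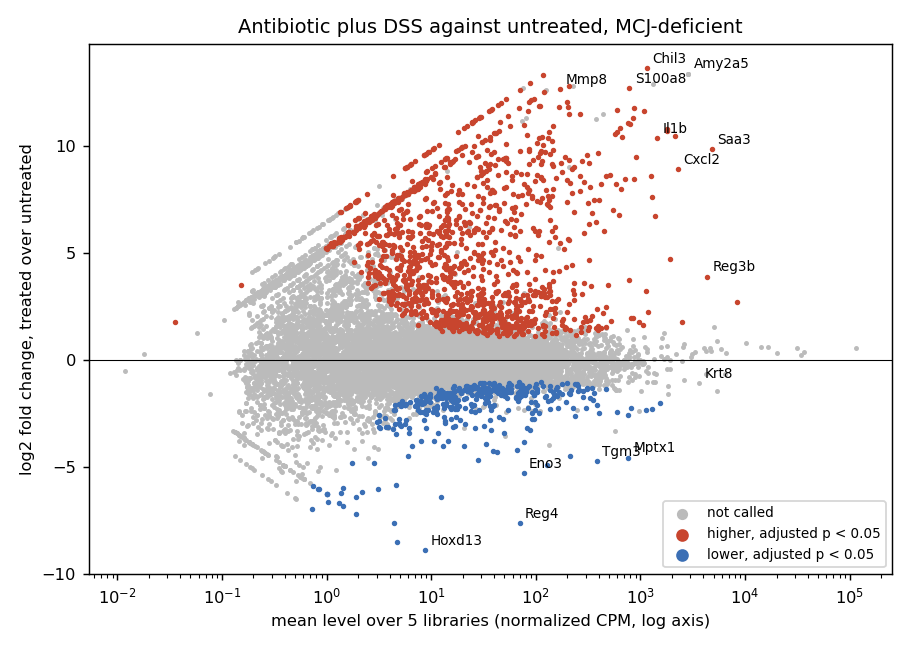
Log2 fold change of treated over untreated against the mean level over the 5 libraries in normalized CPM on a log axis, with 1 point per gene tested and genes at 0 reads in a group drawn at their bound. The 1314 genes called higher reach larger changes than the 372 called lower, and Reg4 and Hoxd13 are the furthest below 0 of the genes named.

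Of the secreted signals, 18 of 21 tested inflammatory cytokines rose and none fell, with a median log2 fold change of 6.53. Without treated library 22, 16 of 21 rose, and without 23, 14 of 21. Without treated library 24, 19 rose and 1 fell. Il1b, which encodes the main secreted product of the inflammasome, was at 1.397 and 2.26 CPM untreated and at 1932, 3885 and 1396 CPM treated (log2 fold change 10.36, SE 0.81, adjusted p = 0.000213). Il1a, an alarmin released from injured cells, was at 0.364 and 0.744 CPM untreated and at 1579, 1981 and 696 CPM treated (log2 fold change 11.31, SE 0.86, adjusted p = 0.0002). For both genes every treated library was far above both untreated ones, and library 23 was the highest. Il6, an inducer of the acute phase response, was at 0.638 and 0.685 CPM untreated and at 44.7, 83.9 and 38.2 CPM treated (log2 fold change 6.39, adjusted p = 0.000287). Tnf was at 8.99 and 6.85 CPM untreated and at 363, 738 and 321 CPM treated (log2 fold change 5.90, adjusted p = 0.000467). The anti-inflammatory cytokine Il10 rose as well, from 0 and 0.238 CPM to 375, 352 and 314 CPM (log2 fold change 11.45, adjusted p = 0.000316), and its 3 treated values were close to each other. Osm, an IL-6 family cytokine made by myeloid cells, was at 0.152 and 0.119 CPM untreated and at 219.9, 331 and 116 CPM treated. Il23a, the specific subunit of IL-23, was at 0.182 and 0.387 CPM untreated and at 27.7, 34.99 and 28.9 CPM treated. Il1rn, the secreted antagonist of the IL-1 receptor, was at 121 and 122 CPM untreated and at 1644, 6545 and 1174 CPM treated. Il18, Il33 and Csf2 were the 3 tested members that did not pass, and Il11 had 0 reads in all 5 libraries. The macrophage, monocyte and neutrophil sums given above were higher in the same libraries, and their part in the changes of cytokines and of the other myeloid gene groups below was not tested.

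Promoters of the cytokine genes Il6, Il1a and Il1b and of S100a9, which encodes a subunit of calprotectin, are shown. Their transcripts each rose by more than 6 on the log2 scale, as did those of genes not shown, such as S100a8 and Il10. The 250 bases before the RefSeq start on GRCm38.p6 are printed 5′ to 3′ on the gene's strand. Capitals mark matches, on either strand, to an NF-kB type motif (GGGA and CC with any 4 bases between them), TTGCNNAA (C/EBP type) or TGANTCA (AP-1 type).
Il6 (chr5:30012864-30013113, plus strand): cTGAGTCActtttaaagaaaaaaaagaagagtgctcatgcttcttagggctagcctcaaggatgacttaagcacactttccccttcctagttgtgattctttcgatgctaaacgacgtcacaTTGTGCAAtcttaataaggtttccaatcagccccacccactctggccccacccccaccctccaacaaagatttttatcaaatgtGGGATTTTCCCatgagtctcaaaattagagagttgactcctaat
Il1a (chr2:129309973-129310222, minus strand): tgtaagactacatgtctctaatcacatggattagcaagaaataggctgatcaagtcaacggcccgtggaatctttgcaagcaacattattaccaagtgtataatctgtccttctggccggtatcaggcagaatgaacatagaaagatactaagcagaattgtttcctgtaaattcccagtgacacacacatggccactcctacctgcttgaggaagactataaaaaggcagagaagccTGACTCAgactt
Il1b (chr2:129371140-129371389, minus strand): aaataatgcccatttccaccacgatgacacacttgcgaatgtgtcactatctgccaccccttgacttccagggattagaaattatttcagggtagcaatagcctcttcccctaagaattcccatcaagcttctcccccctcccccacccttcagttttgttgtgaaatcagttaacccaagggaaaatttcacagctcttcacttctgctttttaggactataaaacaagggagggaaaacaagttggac
S100a9 (chr3:90695722-90695971, minus strand): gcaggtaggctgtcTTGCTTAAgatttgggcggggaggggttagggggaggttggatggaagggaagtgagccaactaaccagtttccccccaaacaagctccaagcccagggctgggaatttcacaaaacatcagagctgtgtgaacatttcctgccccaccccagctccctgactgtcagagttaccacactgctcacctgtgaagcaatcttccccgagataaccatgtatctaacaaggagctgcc
The Il6 window held matches to all 3 motifs, among them 2 overlapping NF-kB type matches on opposite strands that share most of their bases. Il1a held 1 match to TGANTCA, S100a9 held 1 match to TTGCNNAA, and Il1b held none, as did the windows of Tnf and S100a8, which are not printed. Of 32851 RefSeq promoters of the same length, 17.6% held the NF-kB type motif, 9.56% TTGCNNAA and 6.75% TGANTCA. A match is a description of letters, and its absence says only that these letters are not in this window.

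Chemokines rose with the cytokines. Of 6 tested CXC chemokine genes that attract neutrophils or encode their receptors, 5 rose (median 5.64), and of 27 CC and interferon-induced chemokines and receptors, 22 rose (median 6.53) and none fell. Cxcl2, a neutrophil attractant made by macrophages, was at 10.1 and 5.81 CPM untreated and at 3229.5, 5547 and 2650.3 CPM treated (log2 fold change 8.90, SE 0.70, adjusted p = 0.000213). Cxcl1 was already present before treatment, at 33.6 and 26.8 CPM, and reached 267, 459 and 363 CPM (log2 fold change 3.59, adjusted p = 0.000921). Cxcl5, in contrast, was at 12.2 and 6.28 CPM untreated and at 7.898, 13.9 and 3.16 CPM treated, with overlapping groups (log2 fold change -0.14, adjusted p = 0.921). Its estimate turned positive without untreated library 13 (0.39) or treated library 24 (0.24). Cxcr2, the receptor for these ligands on neutrophils, had 0 reads untreated and 2.61, 14.8 and 10.9 CPM treated, at least 205-fold higher. Ccl2, which draws CCR2-bearing monocytes from blood, had 0 reads untreated and 53.8, 61.7 and 68.01 CPM treated, at least 1344-fold higher. Ccl3, a ligand of CCR1, was at 0.911 and 0.744 CPM untreated and at 726, 2179 and 422 CPM treated (log2 fold change 10.38). The receptor gene Ccr2 was at 0.0607 and 0.0595 CPM untreated and at 38.01, 35.5 and 66.7 CPM treated. Ccr1, another receptor on monocytes, was at 0.880 and 1.31 CPM untreated and at 181, 282 and 190.1 CPM treated, and both genes were higher in each treated library. Ccl25 and Ccl28, which attract lymphocytes to gut epithelium, did not pass the test.

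The intracellular response genes had smaller medians than the cytokines. Of 24 genes of the TNF and NF-kB pathway 17 rose, none fell, and the median was 2.10, although 8 rose without untreated library 13 or without 14 and 20 without treated 24. Tnfaip2, a target of TNF, was at 0.0607 and 0.923 CPM untreated and at 171, 203 and 114 CPM treated (log2 fold change 8.36, adjusted p = 0.0013). Icam1, which encodes a leukocyte adhesion molecule, was at 2.67 and 0.953 CPM untreated and at 105, 123 and 82.1 CPM treated (log2 fold change 5.83). The NF-kB inhibitor gene Nfkbie was at 2.43 and 1.399 CPM untreated and at 41.9, 39.9 and 17.99 CPM treated. Of 14 Toll-like and NOD receptors and adaptors 5 rose. Cd14, the endotoxin co-receptor, was at 23.5 and 20.4 CPM untreated and at 1906, 3747 and 1197 CPM treated. Tlr2, which senses bacterial lipoproteins, was at 16.4 and 24.2 CPM untreated and at 192, 276 and 164 CPM treated. Nod2, a sensor of muramyl dipeptide, was at 0.395 and 0.655 CPM untreated and at 11.9, 12.5 and 10.3 CPM treated. Of 14 inflammasome genes 4 rose and 1 fell. Nlrp3, the sensor that activates caspase-1, was at 0.152 and 0.179 CPM untreated and at 201, 149 and 79.9 CPM treated (log2 fold change 9.73, SE 0.67). Mefv, which encodes the sensor pyrin, was at 0 and 0.238 CPM untreated and at 115, 98.5 and 44.1 CPM treated. Il18bp, the secreted decoy for IL-18, was at 1.61 and 1.43 CPM untreated and at 34.9, 25.2 and 29.1 CPM treated. Casp4, the caspase that binds cytosolic endotoxin, was at 20.98 and 18.6 CPM untreated and at 78.5, 119 and 51.04 CPM treated and its call was lost without untreated 13 (adjusted p = 0.106) or 14 (0.13). The member that fell was the gasdermin gene Gsdmc2, at 1456 and 1610.5 CPM untreated and at 238, 197 and 541 CPM treated (log2 fold change -2.24, adjusted p = 0.0212), a call lost without any 1 of libraries 13, 14, 22 and 23 (0.0715, 0.0914, 0.0888 and 0.063). Casp1 and Pycard, the effector protease and adaptor, did not pass. Interferon-stimulated genes rose in 7 of 26 cases, and in 5 without untreated 13 or treated 22, 6 without 23, 9 without 14 and 10 without 24. Ifitm3, a restriction factor, was at 6.47 and 6.85 CPM untreated and at 154, 581 and 266 CPM treated. Rsad2, which encodes viperin, was at 7.29 and 10.7 CPM untreated and at 72.8, 171 and 61.01 CPM treated, while Isg15 and Mx1 did not pass.

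Phagocyte receptors rose as a whole set: all 17 Fc receptors and myeloid lectins tested were called higher, with a median of 9.28 on the log2 scale, and the number was 17 without each library in turn. Of these 17, 3 had 0 reads in both untreated libraries and so had to differ. Clec4e, the receptor Mincle for mycobacterial glycolipids and dead cells, was at 0.516 and 0.625 CPM untreated and at 957, 1502 and 693 CPM treated (log2 fold change 10.84, SE 0.68, adjusted p = 0.000145). Clec4d, its partner receptor, was at 0.0911 and 0.208 CPM untreated and at 409.7, 593 and 307 CPM treated. Tyrobp, the signalling adaptor shared by many of these receptors, was at 0.820 and 1.49 CPM untreated and at 274, 439 and 347 CPM treated. Trem1, an amplifier of myeloid activation, had 1 read in the untreated group and a treated to untreated ratio of 13216 (95% counting interval 2372 to 522050). The myeloid integrin gene Itgam, encoding CD11b, was at 2.13 and 1.07 CPM untreated and at 309, 294 and 77.05 CPM treated. Of 9 genes of NADPH oxidases 7 rose (median 4.84). Of its phagocyte subunits, Ncf4 was at 0.152 and 0.476 CPM untreated and at 67.5, 115 and 64.4 CPM treated. Ncf1, another of them, was at 0.516 and 0.595 CPM untreated and at 43.1, 84.3 and 44.6 CPM treated. Duoxa2, the maturation factor of the epithelial oxidase DUOX2, was at 6.74 and 6.01 CPM untreated and at 182, 141 and 226 CPM treated. Complement genes rose in 10 of 15 cases, including the chain of the first component and receptors for split products. C1qb, a chain of C1q, was at 0.182 and 0.357 CPM untreated and at 54.6, 40.9 and 60.4 CPM treated. C5ar1, the receptor for the anaphylatoxin made from C5, was at 0.334 and 0.149 CPM untreated and at 90.5, 149.9 and 80.7 CPM treated.

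Antigen presentation followed. Of 11 genes of MHC class II presentation 10 rose (median 6.45), and 9 or 10 rose without each library in turn. H2-Ab1, the beta chain of I-A, was at 2.22 and 4.35 CPM untreated and at 441, 539 and 581 CPM treated (log2 fold change 7.31, SE 0.53). Cd74, the invariant chain, was at 5.53 and 8.51 CPM untreated and at 707, 560.4 and 579 CPM treated. The co-stimulatory gene Cd86 was at 0.334 and 0.298 CPM untreated and at 91.5, 96.6 and 70.9 CPM treated (log2 fold change 8.08, SE 0.44), with treated libraries within a narrow range, whereas Ciita, the master regulator of class II genes, did not pass. Ccr7, which guides dendritic cells to lymph nodes, had 0 reads untreated and 25.3, 95.7 and 40.8 CPM treated, at least 1212-fold higher. Flt3, the growth factor receptor of dendritic cells, had 0 reads untreated and 8.33, 5.38 and 8.32 CPM treated, at least 161-fold higher.

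Genes linked to classical and to alternative macrophage activation rose side by side. Of 15 classical genes 12 rose (median 8.72), and of 17 alternative genes 14 rose (median 5.85), none falling in either list. Acod1, the enzyme that makes itaconate, was at 0.455 and 0.804 CPM untreated and at 879.7, 1734 and 389 CPM treated (log2 fold change 10.62, SE 0.97, adjusted p = 0.000382). Nos2, the inducible nitric oxide synthase, was at 0.0607 and 0.327 CPM untreated and at 72.7, 623 and 10.8 CPM treated (log2 fold change 10.21, SE 2.10, adjusted p = 0.0178), and missed the threshold without untreated library 13 (adjusted p = 0.0505). Arg1, the arginase that competes for the same substrate, was at 0.607 and 0.387 CPM untreated and at 109, 734 and 25.3 CPM treated (log2 fold change 9.18, SE 1.69), with the same order of libraries. Fpr1, a receptor for bacterial formyl peptides, had 3 reads in the untreated group and a ratio of 4149 (95% counting interval 1419 to 20119). Chil3, the chitinase-like protein Ym1 of monocytes and alternatively activated macrophages, was at 0.0607 and 0.238 CPM untreated and at 2492, 1810.0 and 1513 CPM treated (log2 fold change 13.62, SE 0.86). F13a1, the coagulation factor chain made by monocytes, was at 0.0304 and 0.149 CPM untreated and at 390.3, 482 and 148 CPM treated. Retnla, a textbook alternative activation gene, was at only 0.546 and 0.655 CPM untreated and at 2.32, 1.13 and 2.82 CPM treated (log2 fold change 1.79, adjusted p = 0.337).

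**Figure D3:**
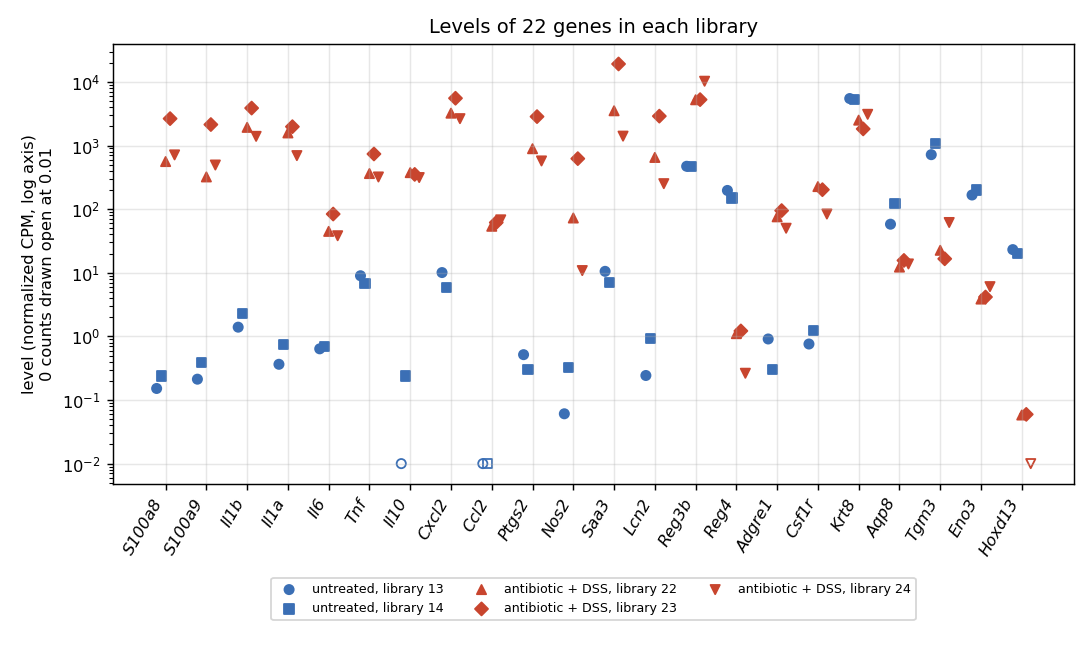
Levels of 22 genes in each of the 5 libraries in normalized CPM on a log axis, with 1 symbol per library and libraries at 0 reads drawn open at 0.01. Cytokine and alarmin genes lie above 10 CPM in every treated library, treated library 23 is often the highest, and Reg4, Eno3 and Hoxd13 lie below the untreated libraries.

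Effector genes of tissue damage, the calprotectin subunits and most metalloproteinases, rose. S100a8 and S100a9 encode calprotectin, a metal-binding antimicrobial complex of neutrophils and monocytes. S100a8 was at 0.152 and 0.238 CPM untreated and at 560.4, 2651 and 714 CPM treated (log2 fold change 12.68, SE 1.18, adjusted p = 0.000401), and S100a9 at 0.213 and 0.387 CPM untreated and at 321, 2140.0 and 495 CPM treated (log2 fold change 11.66, SE 1.29). Of 19 metalloproteinases and inhibitors tested 18 rose (median 5.32), and 12 to 19 rose when 1 library was left out. Mmp8, the neutrophil collagenase, had 0 reads untreated and 247, 401 and 198 CPM treated, at least 6385-fold higher and the largest bound of the genes named. Mmp13, another collagenase, was at 0.425 and 0.0595 CPM untreated and at 149.6, 305 and 67.03 CPM treated (log2 fold change 9.47). Mmp12, the macrophage elastase, was at 0.182 and 0.268 CPM untreated and at 117, 360.2 and 72.8 CPM treated (log2 fold change 9.64). Mmp3, a stromelysin of stromal cells, had 0 reads untreated and 6.27, 9.84 and 1.84 CPM treated, at least 139.7-fold higher. Timp1, which encodes a metalloproteinase inhibitor, is X-linked and was not tested; it was at 0.152 and 0.268 CPM untreated and at 76.2, 267 and 52.3 CPM treated. Neutrophil granule and receptor genes moved in the same direction, 9 of 10 tested neutrophil markers rising, and the part that cell numbers played in these changes was not tested.

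Lipid mediator and matrix genes also rose. Of 18 genes of the prostaglandin and lipoxygenase pathway 11 rose and 1 fell, and 6 to 8 rose without either untreated library or without treated 22 or 23. Ptgs2, the inducible cyclooxygenase, was at 0.516 and 0.298 CPM untreated and at 892, 2852 and 573 CPM treated (log2 fold change 11.78, SE 1.13, adjusted p = 0.000467). Ptges, the enzyme that then makes prostaglandin E2, was at 0.698 and 0.298 CPM untreated and at 80.3, 459 and 23.3 CPM treated. The gene that fell was Hpgd, which degrades prostaglandins, at 238 and 267 CPM untreated and at 78.4, 48.6 and 89.9 CPM treated (log2 fold change -1.80, adjusted p = 0.0127), and its call was lost without untreated library 13 (0.0659) or 14 (0.0952). Of 17 matrix genes 10 rose (median 3.79), with 5 rising without library 13 and 6 without 14. The fibroblast marker sum, given above, was higher in the same libraries. Fn1, fibronectin, was at 0.364 and 1.55 CPM untreated and at 543, 117 and 71.4 CPM treated. Vcan, versican, was at 0.304 and 0.357 CPM untreated and at 231, 115 and 63.05 CPM treated. Spp1, osteopontin, a phosphoprotein of activated macrophages, had 3 reads untreated and a ratio of 4103 (95% counting interval 1404 to 19899). The fibrillar collagen genes Col1a1 and Col1a2 did not pass the test.

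Acute phase genes rose with a wide spread among the treated libraries, 8 of 11 tested passing (median 7.33). Saa3, a serum amyloid A made by macrophages and epithelium, was at 10.5 and 6.996 CPM untreated and at 3523, 19176 and 1407 CPM treated (log2 fold change 9.84, SE 1.47, adjusted p = 0.00384). Lcn2, lipocalin-2, which withholds iron from bacteria, was at 0.243 and 0.923 CPM untreated and at 650.3, 2902 and 252 CPM treated (log2 fold change 11.08, SE 1.55). Hp, haptoglobin, was at 0.334 and 0.774 CPM untreated and at 1441, 3617 and 289 CPM treated. In these 3 genes library 23 was the highest and library 24 the lowest of the treated group, while Saa1 and Saa2 did not pass. Slpi, a leukocyte protease inhibitor, was at 7.196 and 3.57 CPM untreated and at 1691, 3833 and 707 CPM treated. Hmox1, the enzyme that opens the heme ring, was at 15.97 and 6.58 CPM untreated and at 1046, 1027 and 139 CPM treated, with red blood cell markers high in the same libraries, and the part of blood in that change was not tested.

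Mucosal defence genes split. Of 19 REG lectins and mucosal antimicrobials 9 rose and 2 fell, a list that also holds S100a8 and S100a9, the calprotectin genes of myeloid cells described above, and a lysozyme gene. Reg3b, a secreted lectin that acts on Gram-negative bacteria, was at 472 and 469 CPM untreated and at 5247, 5274 and 10266 CPM treated (log2 fold change 3.88, SE 0.51, adjusted p = 0.00209). Reg3g, its relative that targets Gram-positive bacteria, was at 97.6 and 91.01 CPM untreated and at 852, 904 and 1975 CPM treated (log2 fold change 3.72, SE 0.53, adjusted p = 0.00311). All 3 treated libraries were above both untreated ones for both genes. Library 24, which held the acinar transcripts, was the highest for both, and the part of those transcripts was not tested. Retnlb, the goblet cell product RELM-beta, was at 10.3 and 11.5 CPM untreated and at 257, 109 and 223 CPM treated (log2 fold change 4.17, adjusted p = 0.0011). Reg4, a lectin of deep crypt secretory and enteroendocrine cells, went the other way, at 197 and 150.3 CPM untreated and at 1.103, 1.22 and 0.263 CPM treated (log2 fold change -7.63, SE 0.61, adjusted p = 0.000226), and each treated library was far below both untreated ones. Wfdc2, an epithelial protease inhibitor, was at 369.8 and 256 CPM untreated and at 49.2, 27.9 and 121 CPM treated (log2 fold change -2.25, adjusted p = 0.0398), and its call was lost without untreated 13 (0.166) or 14 (0.0571) and without treated 22 (0.129) or 23 (0.0738). Ang4, an angiogenin of Paneth and goblet cells, was at 8.93 and 21.2 CPM untreated and at 21.7, 25.7 and 29.1 CPM treated and did not pass (adjusted p = 0.306).

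Mucus genes gave no call. None of 18 tested mucins and goblet secretion genes passed, with 11 positive and 7 negative estimates, and 1 fell without treated 24. Muc2, the main secreted mucin, was at 309 and 431 CPM untreated and at 1137, 275 and 550.2 CPM treated, with overlapping groups (adjusted p = 0.416). Muc3, a membrane mucin, was at 814 and 1042 CPM untreated and at 450.0, 229 and 368 CPM treated (log2 fold change -1.41, adjusted p = 0.0505).

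**Figure D4:**
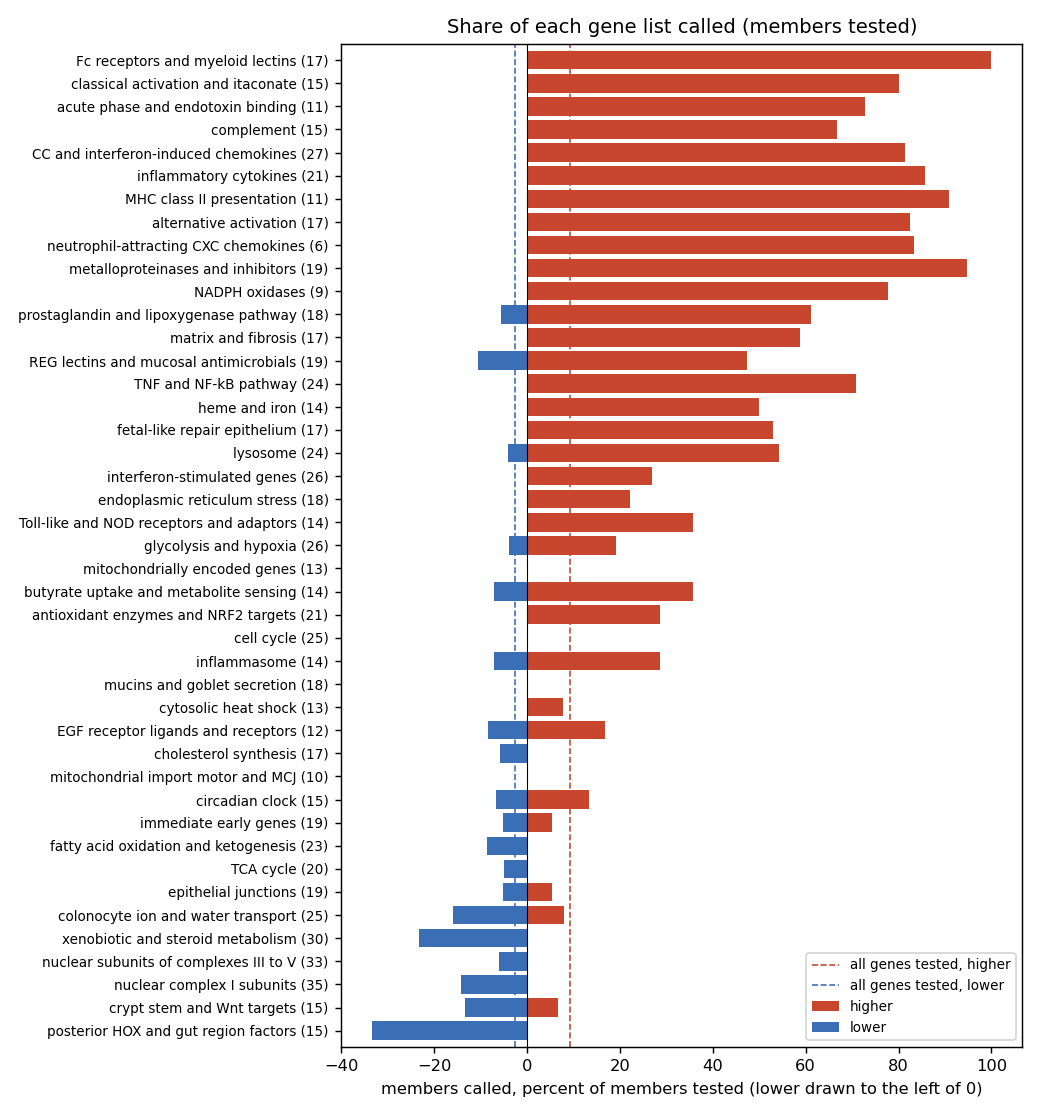
Percent of the tested members of each of the 43 pathway lists called higher (right of 0) or lower (left of 0), ordered by the list's median, with the number tested in parentheses and the shares over all genes as dashed lines. Myeloid, cytokine and protease lists reach far above the 9.26% of all genes, and HOX, xenobiotic and transport lists lead the lower calls against 2.62% of all genes.

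A few transport genes of the absorptive colonocyte passed the test. Of 25 ion and water transport genes 4 fell and 2 rose (median -0.85), against 2.62% lower and 9.26% higher over all genes tested. The rises were thus no more frequent than over all genes. Without 1 library 2 to 5 fell and 0 to 2 rose, the extremes being without untreated 14 (2 fell), without treated 24 (5 fell) and without untreated 13 (0 rose). Aqp8, the water channel of surface colonocytes, was at 58.05 and 122 CPM untreated and at 12.3, 15.6 and 13.8 CPM treated (log2 fold change -2.69, SE 0.37, adjusted p = 0.00256). Atp12a, the colonic proton-potassium pump, was at 148 and 204 CPM untreated and at 11.96, 7.403 and 17.5 CPM treated (log2 fold change -3.84, SE 0.42, adjusted p = 0.000805). The other 2 that fell were named after their values were seen. Car2, a carbonic anhydrase, was at 2106 and 2894 CPM untreated and at 269, 430.1 and 804 CPM treated. Scnn1a, a subunit of the epithelial sodium channel, was at 39.7 and 49.2 CPM untreated and at 16.9, 3.81 and 10.7 CPM treated. The call of Scnn1a was lost without untreated 13 (0.0979) or 14 (0.173) or treated 24 (0.0615), and that of Car2 without 14 (0.112), 22 (0.0691) or 23 (0.0774). Of the members that rose, Clca4a, of the calcium-activated chloride channel regulator family, was at 8.77 and 22.1 CPM untreated and at 166, 126 and 86.5 CPM treated. Sgk1, a kinase that stabilizes sodium channels, was at 96.4 and 121 CPM untreated and at 658, 608 and 435 CPM treated. The call of Clca4a was lost without untreated 13 (adjusted p = 0.054) and that of Sgk1 without 13 (0.116) or 14 (0.0652). Several abundant colonocyte genes had negative estimates that did not pass. Krt8, a keratin, was at 5485 and 5233 CPM untreated and at 2509, 1827 and 3100.2 CPM treated (log2 fold change -1.11, adjusted p = 0.1). Car1, the major colonic carbonic anhydrase, was at 6069.8 and 11182 CPM untreated and at 2180.3, 4122 and 3157 CPM treated (adjusted p = 0.0737). Slc26a3, the chloride-bicarbonate exchanger, was at 251 and 650.0 CPM untreated and at 219, 153 and 267 CPM treated (adjusted p = 0.171). Car4, in contrast, was at 112 and 224 CPM untreated and at 484, 292 and 364 CPM treated (log2 fold change 1.18, adjusted p = 0.112). The colonocyte marker sum was 1.03 lower on the log2 scale in the same libraries, and its part in the values of these genes was not tested.

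Enzymes of xenobiotic and steroid metabolism had 7 of 30 members falling and none rising (median -0.92), with 2 to 5 falling without any 1 of libraries 13, 14, 22 and 23, 15 without 24, and 13 with scaling by library totals. Cyp2d34 was at 176 and 204 CPM untreated and at 42.2, 38.9 and 50.5 CPM treated (log2 fold change -2.12, SE 0.29, adjusted p = 0.00252). Gstm3, a glutathione transferase, was at 77.3 and 68.7 CPM untreated and at 11.3, 17.8 and 19.05 CPM treated. Gstt1, another transferase, was at 25.05 and 39.3 CPM untreated and at 8.25, 4.88 and 6.62 CPM treated, and its call was lost without untreated 14 (0.101). Outside that list, 3 cytochrome P450 genes of the Cyp2c cluster were among the 15 largest decreases. Cyp2c69 was at 88.3 and 109.8 CPM untreated and at 1.36, 2.2 and 11.4 CPM treated (log2 fold change -4.32, adjusted p = 0.0127) and its call was lost without treated 23 (0.0505). Cyp2c40 was at 155 and 152 CPM untreated and at 1.34, 1.72 and 21.98 CPM treated. Cyp2c67 was at 87.01 and 94.3 CPM untreated and at 1.02, 0.951 and 12.3 CPM treated. In each of the 3 genes library 24 was the highest of the treated group. The call of Cyp2c40 was lost without untreated 13 (0.0512), treated 22 (0.0974) or 23 (0.101), and that of Cyp2c67 without 22 (0.0903) or 23 (0.0794). These genes are near-identical neighbours, and how reads that fit several of them were counted is not given in the sources used here. Cyp2c55, a related enzyme, was at 602 and 1204 CPM untreated and at 318, 379.5 and 334 CPM treated (adjusted p = 0.0516).

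The 15 largest decreases included enzymes, pentraxins and nutrient carriers. Tgm3, a transglutaminase, was at 719 and 1093 CPM untreated and at 22.6, 16.6 and 61.8 CPM treated (log2 fold change -4.75, SE 0.61, adjusted p = 0.0018). Mptx1, a pentraxin of the intestinal epithelium, was at 2043 and 1559 CPM untreated and at 35.8, 46.9 and 143 CPM treated. Mptx2, another pentraxin gene, was at 532 and 471 CPM untreated and at 11.96, 17.9 and 35.9 CPM treated. Eno3, the muscle-type enolase of glycolysis, was at 167 and 201 CPM untreated and at 3.86, 4.16 and 6.06 CPM treated (log2 fold change -5.29, SE 0.35, adjusted p = 0.000147). For Eno3 the striated muscle marker sum was 313.4 and 287.4 CPM untreated and 273.5, 203 and 272.6 CPM treated, with 3 of its 6 genes at 0 in both groups, and its part in the fall was not tested. Slc37a2, a sugar-phosphate transporter gene, was at 321 and 293 CPM untreated and at 6.74, 14.2 and 9.899 CPM treated (log2 fold change -4.90). Ano1, a calcium-activated chloride channel gene, was at 53.4 and 80.2 CPM untreated and at 2.06, 3.75 and 2.03 CPM treated (log2 fold change -4.67). Among nutrient carriers, Slc15a1, the peptide transporter PEPT1, was at 38.4 and 55.9 CPM untreated and at 1.07, 2.14 and 5.38 CPM treated. Slc46a1, the proton-coupled folate transporter, was at 15.3 and 14.8 CPM untreated and at 0.494, 1.37 and 0.866 CPM treated. Fabp6, the ileal bile acid binding protein, was at 31.5 and 28.3 CPM untreated and at 2.82, 2.38 and 0.188 CPM treated and its call was lost without treated 22 (0.0523) or 23 (0.0577). Fgfr3, a growth factor receptor gene, was at 11.96 and 15.96 CPM untreated and at 0.842, 0.981 and 0 CPM treated (adjusted p = 0.0332), and its call was lost without each of 13 (0.0666), 14 (0.126), 22 (0.0893) and 23 (0.0711).

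Posterior identity genes had negative estimates throughout. Of 15 posterior HOX and gut region factors tested 5 fell, none rose, and all 15 estimates were negative (median -1.53). Hoxd13, the most posterior gene of the HoxD cluster, was at 23.1 and 20.1 CPM untreated and at 0.0581, 0.0595 and 0 CPM treated (log2 fold change -8.89, SE 0.70, adjusted p = 0.000213). Hoxb13, expressed in distal colon and rectum, was at 191 and 164 CPM untreated and at 10.1, 11.4 and 37.2 CPM treated (log2 fold change -3.18, SE 0.57). Hoxa10 was at 44.7 and 50.3 CPM untreated and at 9.55, 9.69 and 13.4 CPM treated (log2 fold change -2.12, SE 0.32). Hnf4a, an epithelial differentiation factor, was at 204 and 339 CPM untreated and at 131, 79.3 and 72.6 CPM treated. Hoxd11 had 1.52 and 2.71 CPM untreated and 0 reads treated, at least 66.9-fold lower. The call of Hoxd11 was lost without 13 (0.173), 14 (0.329), 22 (0.0669) or 23 (0.0657), and that of Hnf4a without 13 (0.0808), 14 (0.365) or 23 (0.0984). Without treated 24, 9 of the genes fell, and 3 or 4 fell without any other single library. The colonocyte sum, lower by 1.03, moved with this list; the stretch of colon taken from each mouse is not given in the sources used here, and its part was not tested.

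Nuclear genes of the respiratory chain had negative estimates as a group, few of which passed. All 35 tested nuclear subunits of complex I had negative estimates (median -1.02), and 5 fell, against 2.62% lower over all genes tested. Of 33 nuclear subunits of complexes III to V all were negative (median -1.01) and 2 fell, and all 20 TCA cycle genes were negative (median -0.75) with 1 called, Pdhb, against 8 without treated 24 and 9 with scaling by library totals. The calls of Pdhb, and of Uqcrfs1 and Atp5j2 in complexes III to V, were lost without any 1 of libraries 13, 14, 22 and 23 (adjusted p for Pdhb of 0.438, 0.282, 0.0936 and 0.0924). Ndufc1 was at 97.4 and 88.4 CPM untreated and at 22.97, 32.2 and 42.4 CPM treated (log2 fold change -1.51, SE 0.33, adjusted p = 0.0222). Ndufa6 was at 142 and 161 CPM untreated and at 58.4, 36.3 and 66.2 CPM treated (log2 fold change -1.50), and Ndufb2 at 63.2 and 58.5 CPM untreated and at 15.8, 18.2 and 33.6 CPM treated (log2 fold change -1.44). Ndufb9 and Ndufb8 were the other members called, with log2 fold changes of -1.25 and -1.15. All 5 calls were lost without either untreated library, with adjusted p of 0.119 to 0.413 without 13 and 0.099 to 0.274 without 14, all 5 without treated 22 (0.05 to 0.117), and 4 of them without treated 23, whereas 27 complex I subunits and 27 of complexes III to V were called lower without treated 24. Scaling by library totals called 26 and 26. The 13 mitochondrially encoded protein genes had positive estimates (median 0.55) and no call, and with scaling by library totals 10 of 13 were positive (median 0.23). They took 24.9% ± 3.87 (SD, n = 2) of counts untreated and 28.3% ± 4.82 (SD, n = 3) treated, a difference of 3.44 points with an exact two-sided permutation p of 0.6. Of the 10 genes of the mitochondrial import motor, in which MCJ acts as a J protein, none passed. Pam16, the partner of the J protein in the motor, was at 17.9 and 18.8 CPM untreated and at 7.03, 11.1 and 7.904 CPM treated (log2 fold change -1.07, adjusted p = 0.104), and Timm44 at 35.7 and 28.02 CPM untreated and at 23.99, 30.8 and 22.2 CPM treated (adjusted p = 0.596). The colonocyte sum was lower by 1.03, and its part in the nuclear subunits was not tested.

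Other metabolic and stress lists changed in part. For comparison, 9.26% of all genes tested were called higher and 2.62% lower. Lysosomal genes rose in 13 of 24 cases and 1 fell, although 4 rose without untreated 13, 5 without 14, 8 without treated 22 or 23 and 18 without 24. Lgmn, the asparaginyl protease legumain, was at 17.6 and 16.2 CPM untreated and at 409, 416 and 253 CPM treated (log2 fold change 4.41). Ctsc, cathepsin C, was at 55.5 and 44.9 CPM untreated and at 391, 560.3 and 319.9 CPM treated (log2 fold change 3.08). Of 18 genes of endoplasmic reticulum stress all were positive (median 1.02) and 4 rose, among them Hspa5, the chaperone BiP, at 1119 and 949 CPM untreated and at 4317, 3271 and 2891 CPM treated (log2 fold change 1.76, adjusted p = 0.0238). At most 1 of these genes rose without any 1 of libraries 13, 14, 22 or 23, and 8 rose without 24. The call of Hspa5 was lost without 13, 14, 22 or 23 (adjusted p of 0.196, 0.251, 0.0803 and 0.0541). Slc7a11, the cystine transporter that feeds glutathione synthesis, was at 23.5 and 18.1 CPM untreated and at 729.8, 643 and 211 CPM treated (log2 fold change 4.67) and was 1 of 6 antioxidant genes of 21 that rose, a number that was 3 without untreated 13 or 14, 4 without treated 22 and 8 without 24, when 3 antioxidant genes also fell. Of 26 glycolysis and hypoxia genes 5 rose and 1 fell, and 4 rose without 13, 3 without any 1 of 14, 22 and 23, and 10 without 24. Slc16a3, the lactate exporter MCT4, was at 1.12 and 0.655 CPM untreated and at 34.5, 128 and 25.3 CPM treated (log2 fold change 6.13), while Pkm, Ldha and Gapdh did not pass. The member that fell was Pfkl, a phosphofructokinase subunit, at 103 and 107 CPM untreated and at 44.8, 60.5 and 39.2 CPM treated (adjusted p = 0.0489), a call lost without 13 (0.279), 14 (0.293) or 22 (0.104).

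Repair and renewal genes gave a mixed picture. Of 17 genes of fetal-like repair epithelium 9 rose and none fell (median 1.51), with 4 rising without 13 or without 14, and 8 rising and 3 falling without treated 24. Cd44, a hyaluronan receptor shared with leukocytes, was at 9.96 and 9.17 CPM untreated and at 1348, 1070.5 and 683 CPM treated (log2 fold change 6.75). Ereg, the EGF receptor ligand epiregulin, was at 3.89 and 6.22 CPM untreated and at 37.02, 25.2 and 43.9 CPM treated (log2 fold change 2.81, adjusted p = 0.00418). Nrg1, neuregulin-1, an ErbB ligand, had 1 read untreated and a ratio of 2844 (95% counting interval 510.2 to 112360). Of 15 crypt stem and Wnt target genes 2 fell and 1 rose, against 2.62% lower and 9.26% higher over all genes tested. Each of these calls was lost without 13, without 14 or without treated 23, and both falls also without treated 22. Without treated 24, 3 fell. Lgr4, an R-spondin receptor, was at 88.1 and 112 CPM untreated and at 48.6, 32.7 and 46.3 CPM treated (adjusted p of 0.144, 0.314, 0.0606 and 0.0797 without 13, 14, 22 and 23). Sox9, a progenitor transcription factor, was at 29.02 and 20.8 CPM untreated and at 8.83, 4.07 and 10.2 CPM treated (0.355, 0.129, 0.0938 and 0.0808). Olfm4, a secreted glycoprotein of crypts and neutrophils, had 0 reads untreated and 1.39, 7.31 and 1.99 CPM treated, at least 81.3-fold higher (0.0672, 0.062 and 0.0775 without 13, 14 and 23). Lgr5, the marker of crypt base stem cells, was near the detection limit, at 2.16 and 0.238 CPM untreated and at 0.0290, 0.773 and 0.0376 CPM treated (log2 fold change -2.07, adjusted p = 0.548), and its estimate was 0.22 without untreated 13. No cell cycle gene of 25 was called, and 1 rose without treated 24. Mki67, the proliferation marker, was at 9.99 and 17.8 CPM untreated and at 55.4, 45.5 and 25.5 CPM treated (log2 fold change 1.60, adjusted p = 0.0551).

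To ask whether these changes depended on MCJ, the untreated and antibiotic plus DSS libraries of wild-type mice, 3 each, were fitted together with the 5 MCJ-deficient libraries. In that fit of 15265 genes, 734 (4.81%) rose and 327 (2.14%) fell in MCJ-deficient mice, and 1457 (9.54%) rose and 812 (5.32%) fell in wild type. Of the genes that rose in MCJ-deficient mice, 629 also rose in wild type, which is 85.7% of the former and 43.2% of the latter. Of the genes that fell, 239 were shared, 73.1% and 29.4% respectively, and no gene was called in opposite directions. In this fit Il1b rose by 10.36 in MCJ-deficient and 9.98 in wild-type mice on the log2 scale, S100a8 by 12.69 and 8.30, Saa3 by 9.86 and 4.83, and Reg3b by 3.85 and 4.00. None of these 4 differences passed the test of the difference itself (adjusted p of 1, 0.663, 0.719 and 1).

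A single gene, Reg4 (0.00655% of genes tested), differed in its response between genotypes, and 905 genes had an unadjusted p under 0.05. DESeq2 called 86 genes for the same difference, and leaving out 1 library gave 0 to 7 with edgeR: 7 without wild-type untreated 3, 4 without MCJ-deficient treated 24 and 2 without wild-type treated 11 or 12. Reg4 was at 96.1, 44.4 and 73.5 CPM in untreated and 70.7, 32.8 and 26.7 CPM in treated wild-type libraries, a log2 fold change of -0.69 (adjusted p = 0.374). The log2 fold change in MCJ-deficient mice minus that in wild type was -6.95 (SE 0.80, adjusted p = 0.0229). With DSS and no antibiotic, the 3 MCJ-deficient libraries were at 11.7, 21.6 and 72.3 CPM, between the untreated and the doubly treated values. The call was lost without wild-type untreated 1 (adjusted p = 0.0606) or 2 (0.0916), MCJ-deficient untreated 13 (0.0845), or treated 22 (0.186) or 23 (0.0644). The next smallest adjusted p were those of Plet1, an epithelial surface protein (0.173), and of the hemoglobin gene Hbb-b1, Retnla and Sis, which encodes sucrase-isomaltase (0.215, 0.215 and 0.215). Plet1 was at 7.56 and 9.23 CPM untreated and 363, 225 and 331 CPM treated in MCJ-deficient mice, and at 21.4, 32.6 and 13.1 CPM against 52.7, 86.1 and 59.4 CPM in wild type. Retnla had 0 reads in untreated wild-type libraries and 32.5, 5.47 and 19.8 CPM in treated ones.

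**Figure D5:**
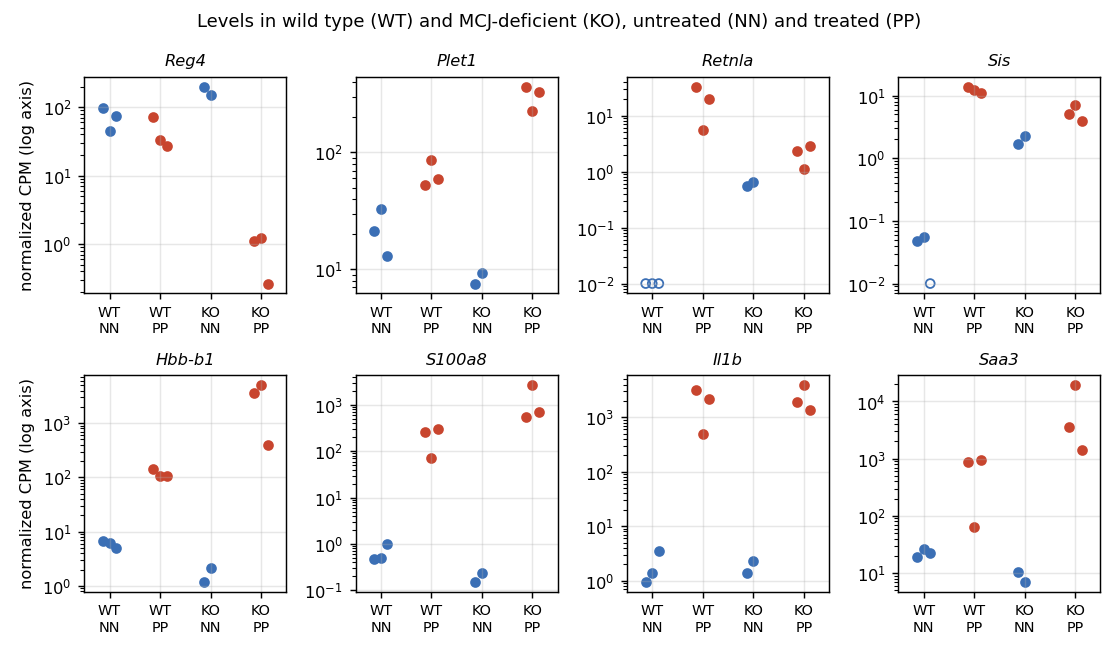
Levels of 8 genes in normalized CPM on log axes in wild-type (WT) and MCJ-deficient (KO) libraries, untreated (NN, blue) or given antibiotic plus DSS (PP, red), with 1 point per library and 0 reads drawn open at 0.01. Reg4 is at 1.22 CPM or less in the treated MCJ-deficient libraries and at 26.7 CPM or more in the others, whereas Il1b and S100a8 are high in the treated libraries of both genotypes.

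Xist differed between the groups in part of the wild type as well, with 2048, 1100 and 1 reads in the untreated and 2 reads in each of the treated wild-type libraries. With a term for the presence of Xist reads added to the fit of 11 libraries, chosen after seeing the data, 4 genes were called: Plet1 rose, and Reg4, Slc37a2 and Zfp397, a zinc finger gene, fell. Because Xist presence and treatment coincide in the MCJ-deficient libraries, that term was set only by wild-type untreated libraries 1 and 2 against 3. The fit therefore cannot tell treatment from sex in MCJ-deficient mice. Of the 1686 genes called in the 5 libraries, 1585 (94%) kept their sign in that fit, with medians of 4.08 for those that rose and -1.91 for those that fell. That share reuses the 5 libraries that made the calls and is no test of sex.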

How the data were processed

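Read counts per gene number were deposited as whole numbers for each library in tables by treatment. Per the submitters' processing notes, CASAVA 1.8.2, FastQC, Trim Galore, STAR 2.5.4, DESeq2 and the mm10 build were used. The counting program, its annotation and its use of strand are not given in the sources used here, so reads of overlapping or antisense genes cannot be told apart. The tables held the same 27179 gene numbers. RefSeq named 25275 and GENCODE M21 another 18, while unplaced or unnamed numbers held 1.838% to 5.95% of counts per library and stayed out of tests and library sizes.

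Genes on autosomes and the mitochondrial chromosome that passed filterByExpr by group were tested with edgeR 4.0.16 (glmQLFit and glmQLFTest, TMM scaling, R 4.3.3), with Benjamini-Hochberg adjustment over all genes tested. DESeq2 1.42.0, other scalings, other filters, other sets of libraries and each library left out were tried as alternatives. The same script recovered known changes in simulated counts. Marker sums and the mitochondrial share were compared by exact two-sided permutation (scipy 1.17.1). Intervals of ratios are 95% counting intervals and, like the floor of 3 reads, cover counting error only. Promoters came from RefSeq, without the 50 bases after the start, and all 6 genes looked up were found in its table by symbol.

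The genes named were the 44 of a fixed set, the 15 largest increases and decreases at a mean of at least 5 CPM with an informative symbol and groups that do not overlap, up to 4 called members with the smallest p per list (2 with the smallest p if none), and the 5 smallest p of the genotype difference. A part of them is printed, and a few are not reported here. Car2, Scnn1a, Cd163, Il1rn, Itgam, Ptges, Slpi, Hpgd, Wfdc2, Gsdmc2, Pfkl, Ndufb8 and Hoxd11 were added after their values were seen. The comparison, the 43 pathway and 21 marker lists were chosen with earlier results of these data known.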

Additional observations from a re-analysis of the deposited data

Results flagged for a closer look

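Y-linked genes stood outside the genes tested, and 3 of them gave signal in the treated libraries and none in the untreated ones. Ddx3y had at least 1026 reads, Eif2s3y at least 2044 and Kdm5d at least 325 in every treated MCJ-deficient library, against 0 reads of each in both untreated MCJ-deficient libraries. Uty, another Y-linked gene, had 9 reads in untreated library 13, 0 in 14, and 634, 362 and 293 in the treated libraries. Treatment and sex cannot be told apart in these 5 libraries.

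The response of Reg4 differed between genotypes by the test of the difference itself: the log2 fold change in MCJ-deficient mice minus that in wild type was -6.95 (SE 0.80, edgeR quasi-likelihood adjusted p = 0.0229). Both untreated MCJ-deficient libraries were higher than the 3 untreated wild-type libraries, and the 3 treated MCJ-deficient libraries were lower than the 3 treated wild-type libraries.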

How the results depend on the processing

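In place of the 1686 calls reported, 2930 were made by DESeq2 (2081 higher, 849 lower), 1061 in the fit of 11 libraries (734 higher) and 4 with the Xist term added after seeing the data (1 higher, 3 lower). The lower calls, 372 as reported, were 569 with upper quartile scaling, 797 with total counts and 675 in the fit of 17 libraries. Total counts moved the median of all genes to -0.24. Leaving out 1 library gave 816 to 2957 calls, 740 to 2005 higher and 68 to 952 lower. For the genotype difference, 86 genes were called by DESeq2, 5 without a low-count filter, 9 in the fit of 17 libraries, and 0 to 7 without 1 library. Of 150 named genes, 147 kept their sign in each of the 17 alternatives that gave them a value. With the Xist term Lgr5 was at 7.79, Pam16 at 0.35 and Cxcl5 at 0.16 on the log2 scale, and 130 calls were lost. Without 1 library Lgr5 ranged from -2.93 to 0.22 (without untreated 13) and Cxcl5 from -0.76 to 0.39 (without 13; 0.24 without treated 24). The acinar sum, -0.46 on the log2 scale and mostly Cela1 outside treated library 24, was at 1.295 without treated 22, 1.328 without 23 and -4.01 without 24. The cause was not tested. No paired analysis was possible because the untreated and treated MCJ-deficient libraries share neither library nor mouse numbers. With 2 untreated libraries, changes near 1 on the log2 scale passed or missed the test by single libraries, as in the respiratory chain genes.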

Other observations

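Several of the largest increases were not named above, and of those given here only Inhba belonged to a list described there, that of classical activation. Ms4a6c, a membrane protein gene of monocytes, had 0 reads untreated and 112, 179 and 131 CPM treated, at least 3136-fold higher. Aoah, the enzyme that inactivates endotoxin by removing its acyl chains, had 0 reads untreated and 55.1, 118 and 29.9 CPM treated, at least 1565-fold higher. Inhba, the activin A subunit, had 0 reads untreated and 32.6, 60.2 and 4.82 CPM treated, at least 767-fold higher, with treated library 24 the lowest. Procr, the endothelial protein C receptor, had 1 read untreated and a ratio of 10368 (95% counting interval 1861 to 409550).

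Genes of other lists passed the test, and 1 of each list is given here. Of 15 circadian clock genes 2 rose and 1 fell. Of 14 genes of butyrate uptake and metabolite sensing 5 rose and 1 fell. Cldn1, a tight junction claudin, had 0 reads untreated and 2.41, 10.1 and 5.19 CPM treated, at least 131-fold higher. Of 19 junction genes 1 rose, Cldn1, and 1 fell, against 9.26% higher and 2.62% lower over all genes tested. Dbp, an output gene of the circadian clock, was at 23.7 and 23.996 CPM untreated and at 2.38, 0.535 and 2.22 CPM treated (log2 fold change -3.80, edgeR adjusted p = 0.00574), and the hour of collection is not given in the sources used here. Dhcr7, the last enzyme of cholesterol synthesis, was at 47.2 and 46.7 CPM untreated and at 13.2, 10.4 and 15.4 CPM treated (log2 fold change -1.85, edgeR adjusted p = 0.0069), a call lost without untreated 13 (0.0641) or 14 (0.0582), and was the only member of 17 cholesterol synthesis genes called. Hcar2, the receptor for butyrate and niacin, was at 3.86 and 1.55 CPM untreated and at 74.1, 416 and 37.8 CPM treated (log2 fold change 6.03, edgeR adjusted p = 0.0161), a call lost without untreated 14 (0.051).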
